A study of Mus musculus with 17 samples.

Results

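The effect of AEOL 10150 on the unlesioned mouse brain was read from 6 of the 17 arrays in the series. They were chosen by their titles alone, 3 AEOL 10150 control arrays and 3 Control arrays, and no measured value entered the choice. Each of these 6 arrays carried RNA pooled from 6 brains, so that 18 brains stood behind each group. The tissue was the grey and white matter that the middle cerebral artery supplies, taken 6 h after the injection.

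AEOL 10150 control pools came from mice given the catalytic antioxidant AEOL 10150 and no ischemia. Control pools came from mice given saline and no ischemia. The remaining arrays, used below only for comparison, were 3 pools and 5 single brains after 1 h of ischemia, intravenous AEOL 10150 and 6 h of reperfusion, and 3 pools after the same ischemia and reperfusion without the drug. The labels give no dose, strain, sex or age, no route for the injection without ischemia, and no word on a sham operation. They do not say whether pools of 1 group came from separate cohorts, so the p-values measure only the spread between these pools.

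Catalytic antioxidants are small molecules that remove superoxide and related oxidants over and over, as the superoxide dismutases and catalase do in the cell. Cells answer oxidant or electrophile stress largely through the transcription factor Nrf2, which raises genes of glutathione synthesis, thioredoxin and heme breakdown. The same oxidants feed the NF-kB and immediate early gene programmes, which in brain are strongly engaged by ischemia. A comparison without ischemia therefore reads the compound against the resting level of these genes.

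The unlesioned brain expressed its usual marker genes in both groups. Snap25, a synaptic vesicle fusion protein, had log2 intensities of 16.48, 15.76 and 16.25 in AEOL 10150 control pools and 16.18, 16.28 and 16.28 in Control pools. Mbp, the myelin basic protein, had 16.05, 15.53 and 15.92 in AEOL 10150 control pools and 15.69, 15.71 and 16.06 in Control pools. The T cell genes Cd3e, Cd3g and Cd8a and the neutrophil granule genes Ngp and Mmp8 lay at the floor on all 6 arrays. Other genes of these cells did not: the T cell gene Cd3d had a difference of -0.34. The granule genes Elane, Mpo and Ltf had means of 9.40, 8.53 and 8.82 in AEOL 10150 control pools and 9.15, 7.79 and 8.27 in Control pools. The floor, 6.77 on the log2 scale, is the level under which intensities were set equal.

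Signs of RNA quality differed between the arrays. The ratio of the 3′ to the 5′ actin probe sets, a measure of RNA integrity and labelling, was 1.97, 2.14 and 1.15 in AEOL 10150 control pools 1 to 3 and 1.65, 1.33 and 1.19 in Control pools 1 to 3. The pools numbered 3 were alike, and the other AEOL 10150 control pools had higher actin ratios than all Control pools. The same ratio for Gapdh was 1.06, 1.55 and 1.04 in AEOL 10150 control pools and 0.98, 1.16 and 1.09 in Control pools. By Gapdh only AEOL 10150 control pool 2 stood above all Control pools. The share of probe sets at or below the floor was 24.6% to 25.3% in AEOL 10150 control pools and 24.7% to 26.5% in Control pools. AEOL 10150 control pool 1 carries a conflict in its labels, since its title names the drug and its description names saline. The title was followed. Without that array, the differences of the 25 genes named below for their small p were 0.86 to 1.30 times those with it. None changed sign, but none could, since these genes were taken for groups that did not overlap. Of 145 other list genes 9 changed sign, and so did 6 of 32 list medians, all of them close to 0 with the array (-0.03 to 0.03).

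In a limma fit over the 12 pooled arrays, 1 of the 10259 probe sets tested passed an adjusted p of 0.05. It was Gfpt2, which rose 4.31-fold in AEOL 10150 control pools. The share called was 0.00975% of the probe sets tested in the higher direction and 0% in the lower direction. A gene list with no member past the threshold is near these shares. At an unadjusted p under 0.05 there were 264 probe sets, 2.57% of those tested, with 176 higher (1.72%) and 88 lower (0.858%) in AEOL 10150 control pools. The 3 values of each group did not overlap for 280 probe sets that were higher (2.73%) and 197 that were lower (1.92%) in AEOL 10150 control pools. Without AEOL 10150 control pool 1 the 264 became 329. Leaving out Control pool 3 turned the 264 into 1084, of which 861 were higher and 223 lower in AEOL 10150 control pools, and 2 probe sets then passed the threshold, while Gfpt2 missed it. These were Faf1, an apoptosis adaptor, which was higher in AEOL 10150 control pools, and Fntb, a farnesyltransferase subunit, which was lower. The Control pool left out was itself like the AEOL 10150 control pools in both genes. Faf1 was 9.86 there and 10.04, 9.31 and 9.90 in AEOL 10150 control pools, and Fntb was at the floor in all 4. With that pool kept, the groups overlapped for both genes. The median difference over all probe sets tested was 0.03 on the log2 scale, and 5606 of 10259 (54.6%) lay above 0.

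Gfpt2 encodes one of the pair of enzymes that carry out the first and rate-limiting step of the hexosamine pathway. That step turns fructose 6-phosphate and glutamine into glucosamine 6-phosphate, on the way to the sugar donor UDP-GlcNAc. It is measured by 1 probe set on the array. Its log2 intensity was 10.69, 10.90 and 10.52 in AEOL 10150 control pools 1 to 3, against 8.54, 8.68 and 8.56 in Control pools 1 to 3. All 3 AEOL 10150 control values stood well above all 3 Control values, and the gap was many times the spread within either group. The means were 10.70 ± 0.19 in AEOL 10150 control pools and 8.59 ± 0.08 in Control pools (SD, n = 3 each). The difference was 2.11 (SE 0.23, 95% interval 1.59 to 2.63, limma adjusted p = 0.0360), a ratio of 4.31 with an interval of 3.01 to 6.18. With 3 arrays against 3, an exact permutation test of this single value cannot go below p = 0.1.

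The size of the Gfpt2 difference was similar from pool to pool, but its call did not hold in most alternative fits. Taken number by number, AEOL 10150 control minus Control was 2.15, 2.22 and 1.96 for pools 1, 2 and 3. The actin ratios of the groups were nearly equal in number 3 and unlike in numbers 1 and 2. The part of RNA quality in the Gfpt2 difference was not tested. With the replicate number as a block the difference remained 2.11 but its limma adjusted p was 0.0952, so 0% of probe sets were called in that fit. In the same fit 405 probe sets had an unadjusted p under 0.05. Without AEOL 10150 control pool 1, the pool with conflicting labels, the difference was 2.12 and the limma adjusted p was 0.280. Groups from the descriptions moved that pool to Control and also moved treated ischemic pool 1, described without the drug, to the untreated ischemic pools. With both moves the difference was 1.59 and the limma adjusted p was 0.939. The Gfpt2 value of AEOL 10150 control pool 1, 10.69, lay between those of AEOL 10150 control pools 2 and 3. Gfpt2 was picked for its small p with that pool among them, which favours such a value. It therefore cannot tell whether the title or the description is right. Leaving out any 1 of the 6 arrays kept the difference between 2.01 and 2.20 and took the limma adjusted p to between 0.0881 and 0.330.

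**Figure D1:**
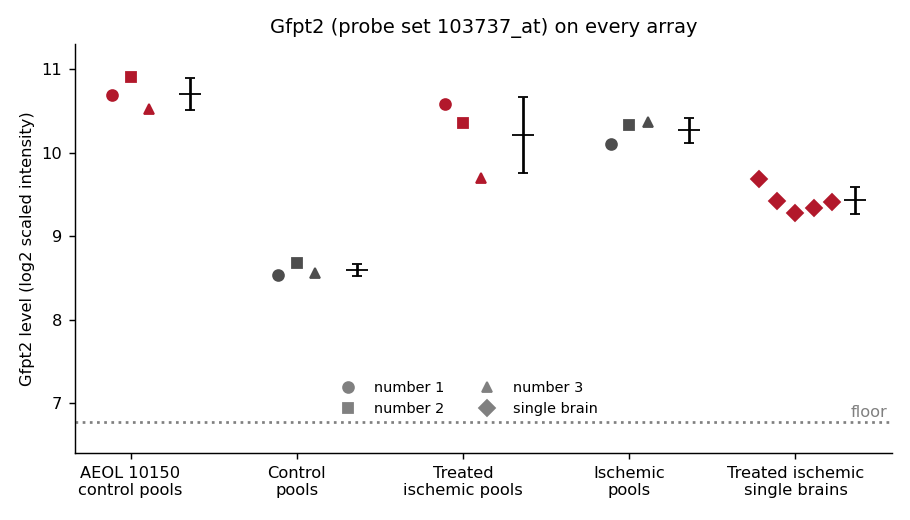
Log2 intensity of Gfpt2 on all 17 arrays, 1 point per array, by group; bars show the mean and SD of each group. The 3 AEOL 10150 control pools sit between 10.52 and 10.90, and the 3 Control pools, at 8.54 to 8.68, are the lowest 3 of the 17 arrays.

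The plot of Gfpt2 by group sets these 6 values beside the ischemic arrays. Gfpt2 stood at 10.58, 10.36 and 9.70 in treated ischemic pools 1 to 3 and at 10.10, 10.33 and 10.37 in untreated ischemic pools. Treated ischemic pool 1 also has conflicting labels, since its title names the drug and its description does not, and the title was followed. The groups overlapped, and the difference of the drug after ischemia was -0.05 (SE 0.23, limma unadjusted p = 0.824). The 5 treated ischemic single brains lay between 9.28 and 9.69 (9.43 ± 0.16, SD, n = 5). Control pools were thus the lowest 3 of the 17 arrays, the next being 9.28, and 2 of the 3 AEOL 10150 control pools were among the highest 3. Untreated ischemic pools exceeded Control pools by 1.67 (limma adjusted p = 0.0189), a comparison that uses the same Control arrays. The drug effect after ischemia minus the drug effect without it was -2.16 (95% interval -2.90 to -1.43). This difference missed the threshold across all probe sets (limma adjusted p = 0.307, unadjusted 5.98e-05). No probe set passed that test (0% called), and 213 had an unadjusted p under 0.05. That count was 711 without Control pool 3, 148 without Control pool 2 and 373 with the replicate number as a block.

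The other measured genes of the hexosamine pathway did not pass the test. Of 17 listed genes 11 were tested and 6 had no probe set on the array. Gfpt2 was the only one called, beside the 0.00975% of all probe sets, and 7 of the 11 differences had a 95% interval within 2-fold, against 48.3% of all probe sets tested. The list's median was 0.09, beside 0.03 over all probe sets. Gnpnat1, which acetylates the glucosamine made by the Gfpt enzymes, had a difference of 0.40. Gne, which takes UDP-GlcNAc towards sialic acid, had 0.21, and Renbp, an epimerase that acts on the free sugar, had the lowest difference, -0.34. Ogt, which puts GlcNAc on proteins inside the cell, differed by -0.05 (95% interval -0.57 to 0.47). Oga, which takes it off again, differed by 0.09 (95% interval -0.40 to 0.58).

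No gene of superoxide, peroxide and thiol defence passed the test, beside 0.00975% of all probe sets. None reached an unadjusted limma p under 0.05, beside 2.57% of all. At shares this small a list of 23 genes may well hold none, so these counts do not set the list apart. Of 28 listed genes 23 were tested, 10 with a difference above 0 and 13 below, with a median of -0.03. The 95% interval lay within 2-fold for 18 of the 23 (78.3%), so for most of these genes a change of 2-fold or more in either direction lay beyond the interval.

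Sod1, the cytosolic copper-zinc superoxide dismutase, had 14.20, 14.68 and 13.99 in AEOL 10150 control pools and 14.30, 14.66 and 14.00 in Control pools. Each AEOL 10150 control pool matched the Control pool of its own number more closely than its own group, and the difference was -0.03 (95% interval -0.63 to 0.57). Sod2, the mitochondrial manganese enzyme, had 11.12, 11.50 and 10.96 in AEOL 10150 control pools and 11.16, 11.39 and 11.06 in Control pools. Its groups overlapped too, with a difference of -0.01 (95% interval -0.53 to 0.51). Sod3, the extracellular enzyme, had 11.46, 10.47 and 11.10 in AEOL 10150 control pools and 10.93, 10.52 and 11.37 in Control pools, and differed by 0.07 (95% interval -0.70 to 0.84). Ccs, the copper chaperone that loads Sod1, had a difference of 0.67, and its other probe sets had -0.23, 0.41 and 0.34.

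Among enzymes that clear hydrogen peroxide, Cat, or catalase, had 9.86, 9.19 and 9.71 in AEOL 10150 control pools and 9.88, 10.70 and 8.93 in Control pools. The Control pools spanned the AEOL 10150 control pools on both sides, and the interval of the difference was wide, -1.34 to 0.83. Gpx1, the cytosolic glutathione peroxidase, had 11.68, 11.88 and 11.70 in AEOL 10150 control pools and 11.37, 11.03 and 11.75 in Control pools, a difference of 0.37 (95% interval -0.17 to 0.91). Gpx3, the secreted form, was 1 of the 23 tested members, and the only one, whose groups did not overlap. Over all probe sets tested that held for 2.73% in the higher and 1.92% in the lower direction. The list is thus near those shares. Gpx3 had 11.08, 11.15 and 11.40 in AEOL 10150 control pools and 11.61, 11.70 and 11.48 in Control pools. All AEOL 10150 control values were lower, by little, and the difference was -0.39 (95% interval -0.85 to 0.07, limma unadjusted p = 0.0894). Prdx2, a cytosolic peroxiredoxin, differed by -0.16 (95% interval -0.63 to 0.31).

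In the thiol branch, Gss, which makes glutathione from its dipeptide precursor, had 10.79, 10.52 and 11.34 in AEOL 10150 control pools and 10.20, 9.50 and 10.64 in Control pools. Each AEOL 10150 control pool was higher than the Control pool of its number, although the groups overlapped. The difference was 0.77 (limma unadjusted p = 0.0628), while the other Gss probe set had -1.18 (SE 1.25). Gclc and Gclm, the subunits of the enzyme one step earlier, had differences of -0.31 and 0.08. Txn1, thioredoxin, and Txnrd1, its reductase, had -0.34 and -0.14. Msrb1, a methionine sulfoxide reductase, had the highest difference in this list, 0.95, with a 95% interval of -1.32 to 3.23.

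**Figure D2:**
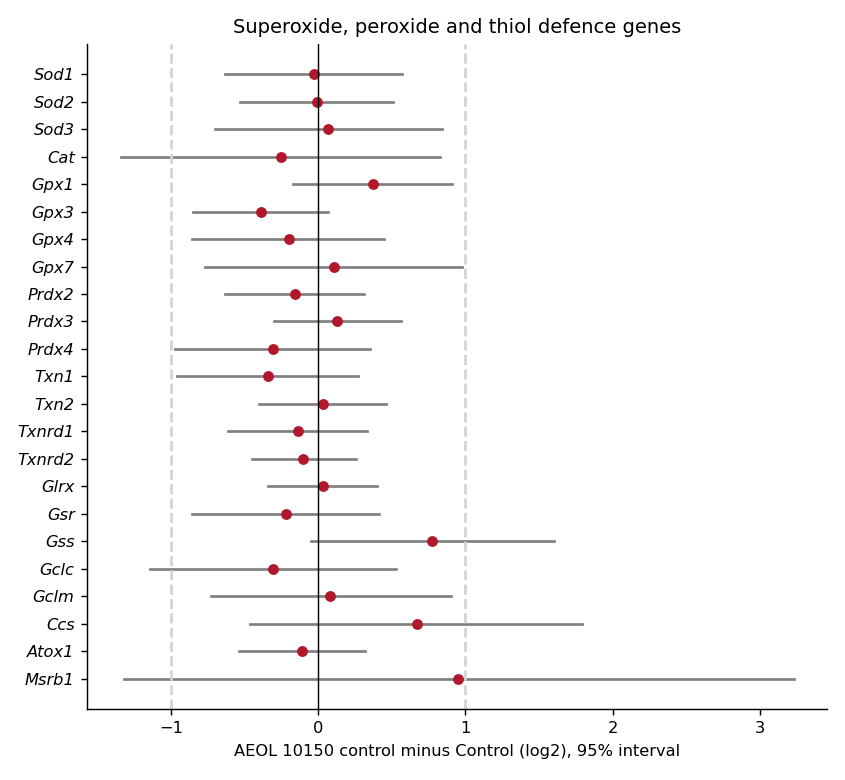
AEOL 10150 control minus Control in log2 intensity for the 23 tested genes of superoxide, peroxide and thiol defence, with 95% intervals from limma; dashed lines mark 2-fold in either direction. Sod1, Sod2 and Prdx2 lie near 0 with intervals inside the dashed lines, while Cat and Msrb1 have intervals that cross them.

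The plot of antioxidant genes shows that the interval, more than the estimate, separated these genes. Of the Nrf2 targets 23 were tested, none past the threshold, with 14 above 0, a median of 0.07 and 12 intervals (52.2%) within 2-fold, near the 48.3% of all probe sets. Hmox1, the inducible heme oxygenase, had 12.42, 12.35 and 12.72 in AEOL 10150 control pools and 11.78, 11.25 and 12.82 in Control pools. Control pool 3 was the highest of the 6 values and the other Control pools were the lowest, and the difference was 0.55 (95% interval -0.32 to 1.42). Srxn1, sulfiredoxin, differed by -0.00 (95% interval -0.44 to 0.44), and Nqo1, a quinone reductase, by 0.18. Mt1, a metallothionein, had 16.09, 15.94 and 16.17 in AEOL 10150 control pools and 15.82, 16.10 and 16.08 in Control pools, a difference of 0.07 (95% interval -0.34 to 0.48). Ephx1, the microsomal epoxide hydrolase, lay at the floor in AEOL 10150 control pools and at 9.74, 9.31 and 6.77 in Control pools (limma unadjusted p = 0.0399, adjusted 1.000). It was at the floor in Control pool 3 as well, so the groups met there.

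Genes of iron, heme and metal transport had a median of -0.00 over 22 tested members, none past the threshold, and 0.13 without AEOL 10150 control pool 1. Aco1, the cytosolic aconitase that doubles as iron regulatory protein 1, had 9.75, 9.58 and 9.32 in AEOL 10150 control pools and 8.43, 7.58 and 9.19 in Control pools. The groups did not overlap, though AEOL 10150 control pool 3 and Control pool 3 nearly met, and the difference was 1.15 (limma unadjusted p = 0.0212, adjusted 1.000). Alas2, the erythroid enzyme of heme synthesis, had a difference of 1.53 (limma unadjusted p = 0.0377, adjusted 1.000). Fth1, ferritin heavy chain, differed by 0.12 (95% interval -0.28 to 0.52) and Tfrc, the transferrin receptor, by 0.35.

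Sources of superoxide and nitric oxide had 12 tested members and a median of 0.17, which was -0.01 without AEOL 10150 control pool 3 and 0.31 without Control pool 3. Ncf4, a subunit of the phagocyte oxidase, had 7.48, 6.77 and 6.77 in AEOL 10150 control pools and 8.17, 8.38 and 7.74 in Control pools. All AEOL 10150 control values were lower, near or at the floor, and the difference was -1.08 (limma unadjusted p = 0.0365, adjusted 1.000). Gch1, which starts synthesis of the nitric oxide synthase cofactor, had -0.73 (limma unadjusted p = 0.0447, adjusted 1.000). Nos1, the neuronal synthase, had -0.11 and Nos2, the inducible one, had 0.79. Ncf1 and Nos3 were at the floor on all 6 arrays.

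The genes next in order after Gfpt2 did not pass the test, and all of those named here had a limma adjusted p of 1.000. Those described next are among the 14 higher and 10 lower genes with the smallest unadjusted p, 0.00106 to 0.00982, among those with groups that did not overlap and means above the floor. Since they were taken for their small p, their values are given as a description. For a mean above the floor 1 array above it was enough, so some of their values lie at the floor.

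Several act in transcription and RNA handling. Hinfp, which drives histone H4 genes, had 8.24, 7.82 and 8.57 in AEOL 10150 control pools and 7.61, 7.01 and 6.77 in Control pools. Zcchc7, a zinc-knuckle protein of nuclear RNA surveillance, had 10.94, 10.70 and 11.07 in AEOL 10150 control pools and 8.85, 9.40 and 9.63 in Control pools. For both genes every AEOL 10150 control value was higher, by 1.08 and 1.61 on average. Phf12, a chromatin protein of the Sin3 complex, had a difference of 0.67. Myog, the muscle differentiation factor myogenin, had 9.55, 8.61 and 9.77 in AEOL 10150 control pools and 6.96, 6.77 and 6.77 in Control pools. Control pools were at or near the floor, so the ratio of 5.55 depends on where the floor is set. Mzf1, a myeloid zinc finger factor, had a difference of -1.45, with AEOL 10150 control pools 1 and 3 at the floor. Zcchc3, a cofactor of nucleic acid sensing, had -0.86.

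Others act in kinase signalling and its scaffolds. Prkd2, protein kinase D2, averaged 9.98 ± 0.21 in AEOL 10150 control pools and 8.50 ± 0.67 in Control pools (SD, n = 3 each). Cit, the citron kinase of cell division, had 11.11, 10.91 and 11.33 in AEOL 10150 control pools and 9.15, 9.52 and 9.92 in Control pools. The differences were 1.49 for Prkd2 and 1.59 for Cit, and in both genes Control pool 3 came closest to the AEOL 10150 control pools. Akap8, a nuclear anchor of protein kinase A, had 0.91. Gkap1, an anchor of cGMP-dependent kinase, had 8.55, 8.86 and 6.77 in AEOL 10150 control pools and 10.03, 9.35 and 11.46 in Control pools, a difference of -2.22 with wide spread in both groups.

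Mitochondrial and secretory genes were among them in both directions. Mrpl14, a protein of the mitochondrial ribosome, had 8.47, 8.70 and 8.71 in AEOL 10150 control pools and 6.77, 6.77 and 7.73 in Control pools, a difference of 1.53 (SE 0.40). Its second probe set had 7.81, 8.02 and 8.70 in AEOL 10150 control pools and lay at the floor in all Control pools, at least 2.64-fold higher in AEOL 10150 control pools. Both probe sets of Mrpl14 therefore separated the groups. Pgs1, which makes a precursor of cardiolipin, had a difference of 1.57, with Control pool 2 at the floor. Nfu1, which hands iron-sulfur clusters to mitochondrial enzymes, had 11.34, 11.51 and 11.98 in AEOL 10150 control pools and 12.31, 12.98 and 12.30 in Control pools, a difference of -0.92 (SE 0.26). Ficd, which adds AMP to the endoplasmic reticulum chaperone BiP, had 0.75, and Zdhhc6, a palmitoyltransferase of the same compartment, had 1.10. B3gnt2, which extends lactosamine chains on glycoproteins, had 10.38, 10.55 and 10.01 in AEOL 10150 control pools and 11.04, 11.28 and 10.96 in Control pools. Every AEOL 10150 control value was lower, and the difference was -0.78.

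Some of these genes are known mainly from leukocytes or from tissues other than brain. Lcp1, the actin-bundling plastin of leukocytes, had 8.92, 7.56 and 6.91 in AEOL 10150 control pools and 9.65, 9.72 and 9.53 in Control pools. The AEOL 10150 control values were lower and far more spread, and the difference was -1.84 (SE 0.48). S100a8, a calcium-binding protein abundant in neutrophils, had 8.47, 8.31 and 8.03 in AEOL 10150 control pools and 7.01, 6.77 and 7.87 in Control pools, a difference of 1.05 (SE 0.32). Its partner S100a9 had 6.77, 8.61 and 9.79 in AEOL 10150 control pools and 6.77, 7.89 and 6.77 in Control pools, and there the groups overlapped. In a bulk sample, more cells of a type and more RNA per cell cannot be told apart. Krt33b, a hair keratin, had 9.13, 8.81 and 9.90 in AEOL 10150 control pools and 8.32, 7.85 and 7.80 in Control pools. Krt12, the corneal keratin, had -0.86, Kcnj1, a potassium channel of the kidney tubule, 1.31, and Spa17, a sperm surface protein, -1.40. Kcnj1 was at the floor in Control pools 1 and 2, and Spa17 in AEOL 10150 control pools 1 and 3. Dgcr6, of the DiGeorge region, had -0.72.

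**Figure D3:**
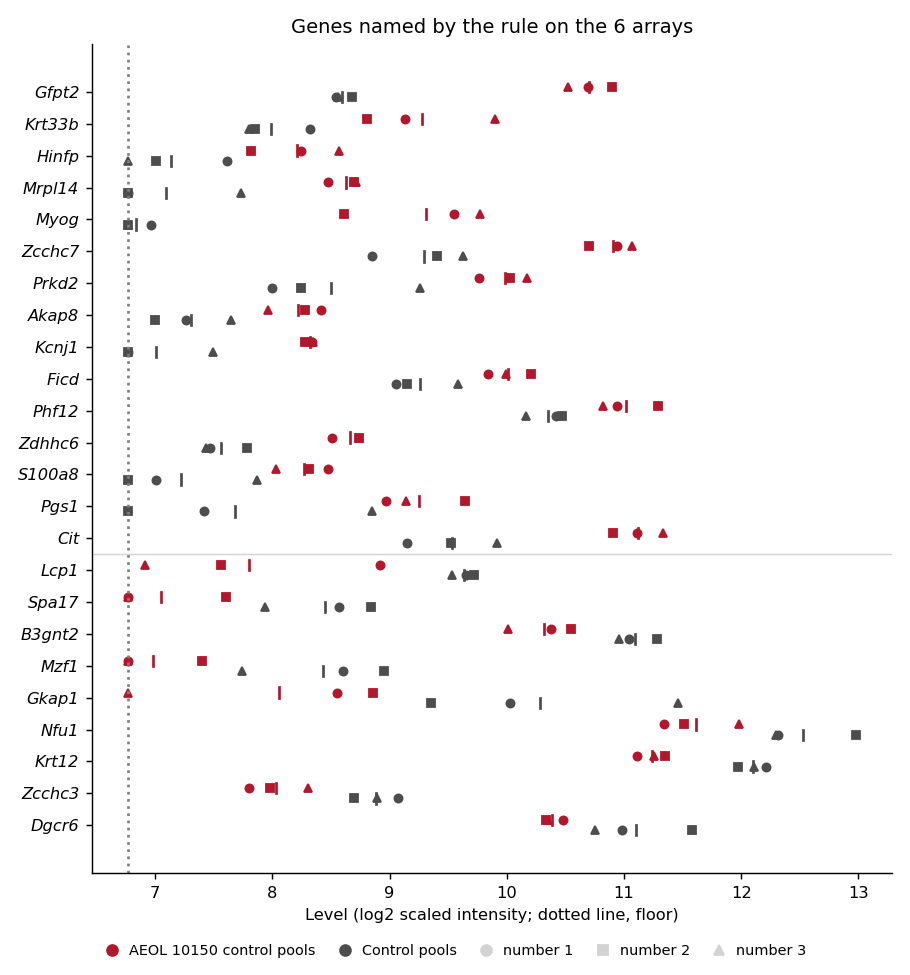
Log2 intensity of 24 of the 25 named genes on the 6 arrays, red for AEOL 10150 control and grey for Control, with circles, squares and triangles for pools 1, 2 and 3, ticks for group means and a dotted line at the floor of 6.77. Gfpt2 has the tightest pair of groups among genes with a difference near its size, while Myog, Gkap1 and Lcp1 have a spread of over 1 within a group or a mean at the floor's edge.

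Other probe sets for the same genes seldom showed the difference. The plot of named genes uses 1 probe set each, and 14 of the 25 genes have further probe sets, 19 in all, of which 15 in 11 genes were tested. Of those 15, 6 had the sign of the named probe set and 9 the opposite, and 1, in Mrpl14, had groups that did not overlap. Over all probe sets tested that held for 2.73% (higher) and 1.92% (lower). The second probe set of Zcchc7 had a difference of 0.02, that of Prkd2 -0.05, that of Cit -0.01 and that of Hinfp -0.34. Those of B3gnt2 and Dgcr6, lower in the named probe set, had 0.67 and 0.72. Probe sets with the suffix _r_at, which the array maker gave to sets with relaxed probe rules, were 5 of the 25 named, 9.09% of the 264 with an unadjusted p under 0.05 and 6.14% of all tested.

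A further 24 higher and 8 lower probe sets with groups that did not overlap had 1 whole group at the floor and so had only a bound. The following were picked after their values were seen. Esr1, the estrogen receptor alpha, had 8.36, 7.76 and 8.03 in AEOL 10150 control pools and lay at the floor in all Control pools, at least 2.42-fold higher in AEOL 10150 control pools (limma unadjusted p = 5.78e-05, adjusted 0.297), and at least 2.17-fold without AEOL 10150 control pool 1. Another Esr1 probe set had a difference of -0.78. Gabra6, a GABA-A receptor subunit, was at least 1.94-fold higher in AEOL 10150 control pools by 1 probe set and had -0.51 by another. Gstm5, a glutathione transferase, lay at the floor in AEOL 10150 control pools and at 9.77, 8.34 and 11.01 in Control pools by 1 _r_at probe set, at least 7.63-fold lower in AEOL 10150 control pools. Its other 3 probe sets had -0.11, 0.01 and -0.29. Cyp1b1, a cytochrome P450 of blood vessels and glia, was at least 3.33-fold lower in AEOL 10150 control pools.

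The drug comparison after ischemia took its group means from none of these 6 arrays. Both comparisons used the same estimate of the spread for each probe set, so their p-values are not independent. Of the 176 probe sets higher in AEOL 10150 control pools at an unadjusted p under 0.05, 69 (39.2%) were also higher in treated than in untreated ischemic pools, beside 46.9% of all probe sets tested. Of the 88 lower, 48 (54.5%) were also lower after ischemia, beside 52.9% of all. At an unadjusted p under 0.05 after ischemia as well and in the same direction, there were 5 of the 176 higher (2.84%) and 2 of the 88 lower (2.27%). Over all 10259 probe sets, 70 (0.682%) had that p after ischemia and the same sign in both comparisons. A small shared spread favours a small p in both comparisons, so these shares cannot test for a shared effect. Among the named genes, 6 of 15 higher and 8 of 10 lower had the same sign after ischemia. Zcchc7, 1.61 higher in AEOL 10150 control pools, was 1.01 higher in treated ischemic pools than in untreated ones. Myog, 2.47 higher in AEOL 10150 control pools, had a difference of -1.59 after ischemia. Ischemic pools exceeded Control pools by 2.84 for Myog, with the same Control arrays in both comparisons.

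Some stress and immediate early genes, picked after their values were seen, differed more between the numbered pools than between AEOL 10150 control and Control. Hspa1a, an inducible heat shock protein, had 12.90, 11.99 and 11.57 in AEOL 10150 control pools 1 to 3 and 13.00, 12.04 and 11.25 in Control pools 1 to 3. Pool 1 was highest and pool 3 lowest in both groups, and the difference was 0.06 (95% interval -0.89 to 1.00). Hspa1b, its near-identical neighbour, had 12.40, 10.72 and 11.08 in AEOL 10150 control pools and 12.55, 10.90 and 10.82 in Control pools. Fos, the immediate early transcription factor, had 12.62, 11.68 and 11.48 in AEOL 10150 control pools and 12.72, 11.87 and 11.28 in Control pools. Both genes were again highest in the pools numbered 1, and both differed by -0.03. Probe sets of Hspa1a and Hspa1b may share signal, since the genes are nearly the same in sequence.

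Other picked genes also followed the number, each in its own order. Cxcl10, an interferon-induced chemokine, had 10.51, 7.29 and 6.77 in AEOL 10150 control pools and 9.95, 6.85 and 6.77 in Control pools. Camk2a, a kinase of forebrain excitatory neurons, had 10.62, 8.64 and 14.28 in AEOL 10150 control pools and 11.39, 9.99 and 14.09 in Control pools. Pool 1 was highest for Cxcl10 in both groups. For Camk2a, pool 3 stood far above the other pools in both groups, and the interval of the Camk2a difference ran from -4.19 to 2.90. Map2, a dendritic microtubule protein, had 12.34, 9.57 and 12.35 in AEOL 10150 control pools and 12.56, 10.50 and 12.12 in Control pools, with both pools numbered 2 low. Whole lists moved to unlike degrees. The median deviation from the mean of the 6 arrays was -0.09 to 0.11 per array for heat shock genes and -0.04 to 0.09 for general neuronal genes. It was -0.33 to 0.13 for immediate early genes, -0.21 to 0.36 for interferon-responsive genes and, among the widest, -0.77 to 0.73 for lymphocyte genes. Pools of the same number had a Spearman correlation of 0.960, 0.930 and 0.967 over the probe sets tested, given as a description. Pools of the same group had 0.909 to 0.940 within AEOL 10150 control and 0.880 to 0.944 within Control.

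**Figure D4:**
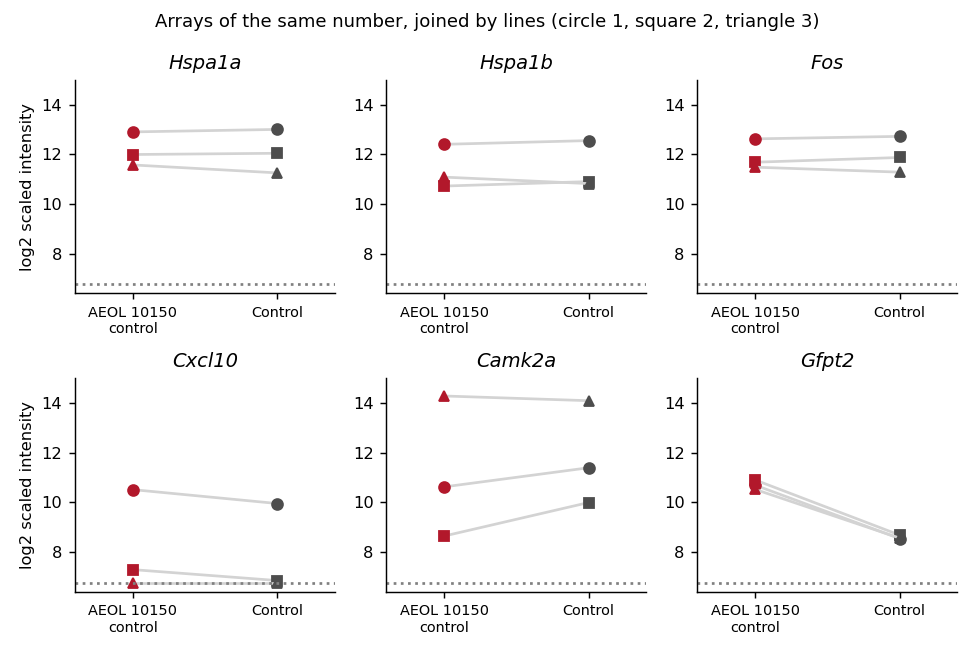
Log2 intensity of Hspa1a, Hspa1b, Fos, Cxcl10, Camk2a and Gfpt2 in AEOL 10150 control pools (left) and Control pools (right), with lines joining pools of the same number. For Hspa1a and Fos the lines run nearly flat at separate heights, those of Hspa1b cross in numbers 2 and 3, Camk2a is 8.64 in AEOL 10150 control pool 2 and 9.99 in Control pool 2, and for Gfpt2 all 3 lines run from 10.52 to 10.90 in AEOL 10150 control down to 8.54 to 8.68 in Control.

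The differences were therefore also taken within each number. In the plot of pools joined by number, Gfpt2 is the gene with 3 steep lines. Over the 10259 probe sets, AEOL 10150 control minus Control had a median of 0.00, 0.06 and 0.00 and an SD of 0.66, 0.87 and 0.62 in numbers 1, 2 and 3. Beyond 2-fold lay 10.5%, 21.1% and 9.0% of the probe sets. Number 2 was thus the most spread, and its pools also had the most unequal actin ratios, 2.14 in AEOL 10150 control and 1.33 in Control; the part of this in the result was not tested. Across probe sets the differences of numbers 1 and 2 correlated at 0.29, those of 1 and 3 at 0.01 and those of 2 and 3 at -0.02. In all 3 numbers 25 probe sets were more than 2-fold higher and 10 more than 2-fold lower in AEOL 10150 control pools.

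No list of inflammatory or stress genes held a member past the threshold, beside 0.00975% of all probe sets tested. At that share most lists would hold none. Immediate early genes had 30 tested members and a median of 0.09, with 18 intervals within 2-fold. Zfp36, which destabilises cytokine mRNAs, had 11.63, 11.22 and 10.76 in AEOL 10150 control pools and 10.97, 10.13 and 10.17 in Control pools. Each AEOL 10150 control pool was higher than the Control pool of its number, and the difference was 0.78 (limma unadjusted p = 0.0179, adjusted 1.000). Egr1 had -0.09. Atf3 had 0.45 by its brightest probe set and -0.58 by another. Heat shock proteins and cochaperones had a median of 0.01 over 25 members, which is 0.04 with quantile normalization and -0.02 with median centring, and 19 intervals lay within 2-fold. The unfolded protein response had 0.02 over 20 members, with Hspa5, the chaperone BiP, at 0.01.

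Cytokines and chemokines had a median of 0.00 over 23 tested members. Ccl4, a chemokine of activated microglia and macrophages, had 9.78, 6.77 and 6.77 in AEOL 10150 control pools and 12.06, 10.80 and 8.91 in Control pools. Each AEOL 10150 control pool lay below the Control pool of its number, pool 1 being highest in both groups, and the difference was -2.81 (limma unadjusted p = 0.0119, adjusted 1.000). Ccl3, its neighbour and partner, had 0.58. Il1b, Tnf and Il6 were at the floor on all 6 arrays. Among NF-kB and adhesion genes, with a median of 0.05 over 26 that is -0.03 with quantile normalization, Birc3, an inhibitor of apoptosis, had 10.18, 9.49 and 8.10 in AEOL 10150 control pools and 8.86, 7.66 and 7.43 in Control pools. Pool 1 was again the highest of each group and the difference was 1.27 (limma unadjusted p = 0.0274, adjusted 1.000). Icam1, the endothelial adhesion molecule, had 0.78.

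Among interferon-responsive genes, with a median of -0.00 over 28, the GTPase Irgm2 had 10.62, 10.46 and 10.26 in AEOL 10150 control pools and 10.01, 9.56 and 9.96 in Control pools. Its groups did not overlap, and the difference was 0.60 (limma unadjusted p = 0.0206, adjusted 1.000). B2m, the light chain of class I molecules, had -0.38, and Ifi30, a lysosomal thiol reductase, had -0.71.

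In metabolic lists most intervals were narrow. Oxidative phosphorylation had 37 tested members, 26 of them below 0, a median of -0.10 and 30 intervals (81.1%) within 2-fold. By number its median was 0.00, -0.24 and -0.02, so the shift lay in number 2, and without pools numbered 2 it was 0.01. Ndufs4 and Ndufa6, subunits of complex I, had -0.50 and -0.44. Proteasome and ubiquitin genes had 23 of 32 below 0 and a median of -0.09, with -0.06, -0.27 and 0.04 by number and 0.08 without Control pool 2. Hypoxia and glycolysis genes had a median of -0.02 over 28, with 22 intervals within 2-fold.

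**Figure D5:**
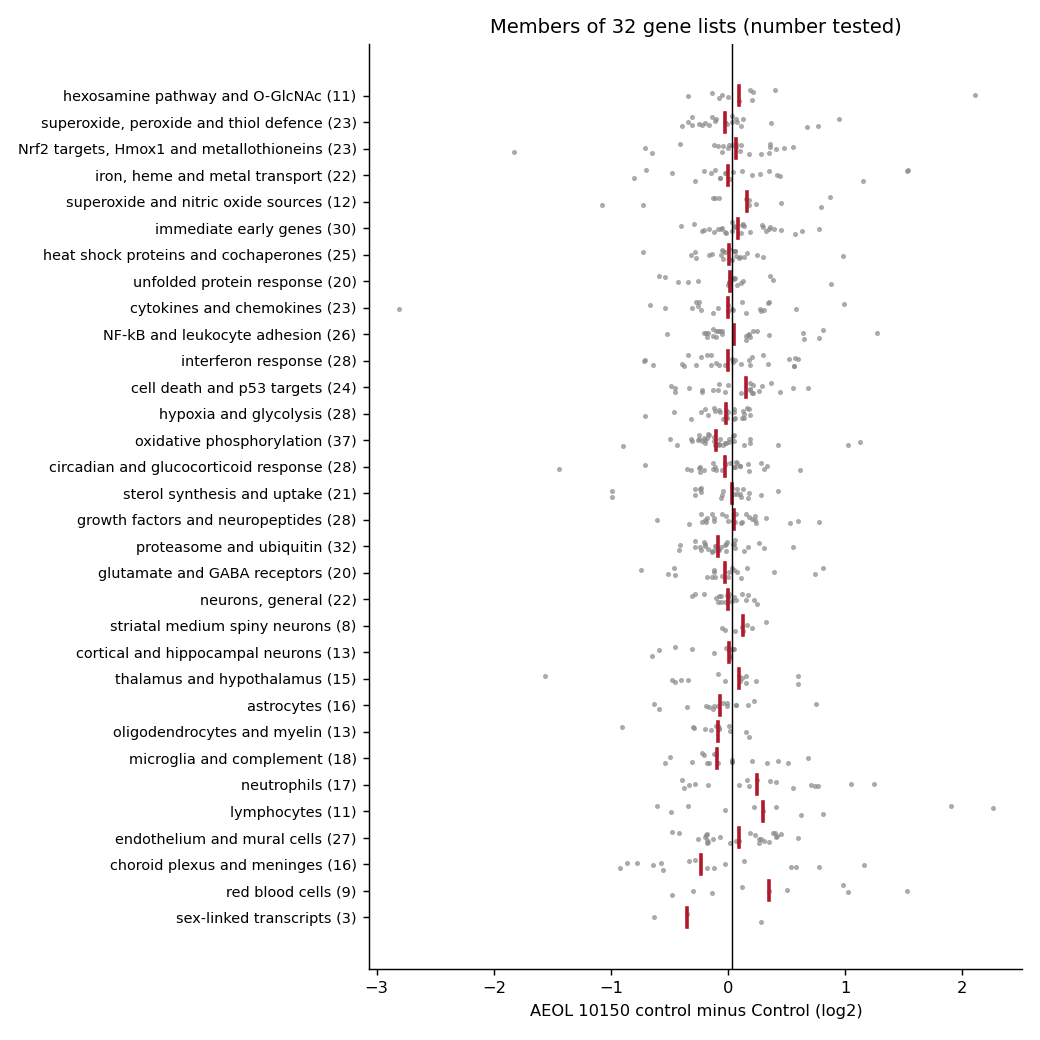
AEOL 10150 control minus Control in log2 intensity for every tested member of the 32 gene lists, 1 dot per gene, with red ticks at list medians and a black line at 0.03, the median over all probe sets tested. Most medians lie within 0.1 of the line; red blood cells (0.35), lymphocytes (0.30) and neutrophils (0.25) lie to its right and sex-linked transcripts (-0.35) and choroid plexus and meninges (-0.23) to its left.

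The plot of gene lists also holds the cell type markers, read as how far the dissected tissue was alike in the groups. General neuronal genes had a median of 0.00 over 22, with 18 intervals within 2-fold, and myelin genes -0.09 over 13. Striatal genes had 0.12 over 8, with Drd2, a dopamine receptor, at 0.13 and Penk, proenkephalin, at -0.05. Astrocyte genes had -0.07 over 16, with Gfap at 0.17 and Fabp7, a fatty acid carrier of radial glia and astrocytes, at -0.63 (limma unadjusted p = 0.0447, adjusted 1.000). Microglia and complement genes had -0.09 over 18, with Csf1r, the receptor on which microglia depend, at -0.09 (95% interval -0.47 to 0.28). Endothelial and mural genes had 0.09 over 27. Leaving out 1 array turned the sign for striatal genes (-0.06 without AEOL 10150 control pool 2) and for astrocyte genes (0.07 without Control pool 2).

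Markers of blood cells and of brain surfaces stood farther from 0. Red blood cell genes had a median of 0.35 over 9, which was 0.00 without Control pool 2 and 0.75 without Control pool 3. Their globin Hba-a1 had 11.44, 12.10 and 10.97 in AEOL 10150 control pools and 11.99, 12.03 and 11.39 in Control pools, a difference of -0.30, opposite in sign to the median. Neutrophil genes had 0.25 over 17, which was -0.03 without Control pool 2, and lymphocyte genes 0.30 over 11, which was 0.08 without it. Choroid plexus and meningeal genes had -0.23 over 16. Their median was -0.29 and -0.27 with quantile normalization and median centring, -0.11 without AEOL 10150 control pool 1 and -0.01 with groups from the descriptions. Ttr, transthyretin, made by the choroid plexus, had 12.06, 12.57 and 12.09 in AEOL 10150 control pools and 12.25, 13.57 and 12.83 in Control pools. It was lower in AEOL 10150 control for each number, the groups overlapped, and the difference was -0.64 (limma unadjusted p = 0.0784). Their part in the differences above was not tested.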

How the data were processed

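RNA of mouse brain was measured on 17 Affymetrix mouse arrays with 12488 probe sets. The deposited values are linear intensities, 1 per probe set and array; the sources used here do not give the authors' software or scaling. The mean between the 2nd and 98th percentiles was 2500.0 on all 6 arrays compared, as deposited, and 15.2% to 18.9% of their intensities were below 0. As deposited it was 140.7 and 187.4 in treated ischemic pools 2 and 3, which are part of the fit below. Every array was brought to a trimmed mean of 2500, intensities were floored at 109.5, the 25th percentile over the 12 pooled arrays, and log2 was taken.

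Groups follow the titles. The 12 pooled arrays were fitted with 4 group means in limma 3.58.1 (R 4.3.3), two-sided, with Benjamini-Hochberg adjustment over the 10259 probe sets that exceeded the floor on 3 or more arrays and a threshold of 0.05. All adjusted p-values are from limma. Tests left out the array's 66 control probe sets. Of the probe sets, 10855 pair with 1 gene symbol in the platform annotation, 396 with several and 1237 with none. The number of arrays limits the precision.

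The replicate numbers pair the samples: deviations from group means of same-numbered arrays correlated at 0.43, 0.45 and 0.50 and those of different numbers between -0.46 and -0.07. This comes from the data, since no label tells what the numbers stand for.

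Named genes were any past the threshold, the 15 higher and 10 lower with the smallest unadjusted p among probe sets with 1 symbol, both means above the floor and no overlap, and in each of 32 gene lists the 3 smallest p and the 2 brightest, by the brightest probe set of a gene. Of the lower genes with the smallest p, 1 is not reported here. Sod2, Sod3, Cat and other list genes outside this rule were added for their roles. Members and lists were chosen with earlier results of these data known. No sequences or genome positions were used. The fit was tested on made-up data with known answers.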

Additional observations from a re-analysis of the deposited data

How the results depend on the processing

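In all, 20 alternatives were run, 16 planned and 4 chosen after seeing the data. The 1 probe set past the threshold became 0 with the replicate block, with the 6 arrays alone (with or without that block), with groups from descriptions, with quantile normalization, with no filter on low values and with limma's intensity trend and robust prior. It became 0 to 2 when 1 array was left out. The alternatives added later (each number left out of both groups, and the replicate block without the treated ischemic pools) gave 0. At these settings 138 to 1084 probe sets had an unadjusted p under 0.05 in limma. The 10th percentile, planned as a lower floor, was below 0, so a floor of 0.00 on the log2 scale was used, which keeps values near the noise; it gave 4, namely Gfpt2 higher and Gstm5, Il6 and Ash2l lower in AEOL 10150 control pools, and with it 3 probe sets passed the test of the drug effects with and without ischemia; with no filter 1 did, and none in the other 15 of the 17 alternatives that can be fitted for it. The replicate block left the Gfpt2 difference at 2.11 (limma adjusted p = 0.0952). Across all 20 alternatives Gfpt2 stayed between 1.59 and 2.20, and its limma adjusted p was under 0.05 in 3, median centring, the low floor and a floor at the 40th percentile (0.0438, 0.0208 and 0.0349). None of the 25 named genes changed sign, over 492 values. Where AEOL 10150 control or Control pools were left out none could, since the 25 were taken for groups that did not overlap. List medians changed sign in 92 of 640 values. Signal over background limits all genes near the floor, whose differences understate or miss change.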

Other observations

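Some gene groups not yet described held single members at the edge of the test, all with a limma adjusted p of 1.000. Among circadian and glucocorticoid genes, with a median of -0.03 over 28, the sulfotransferase Sult1a1 had a difference of -1.44 (limma unadjusted p = 0.0339) and Nfil3, a clock-output repressor, had 0.61. In sterol synthesis and uptake, with 0.03 over 21 (-0.02 with quantile normalization), Ebp and Mvd, enzymes of the cholesterol pathway, both had -0.99, while Apoe had -0.05. Among glutamate and GABA receptors, with -0.02 over 20, Gabra2 had 8.81, 8.86 and 8.80 in AEOL 10150 control pools and 9.34, 9.90 and 9.45 in Control pools. All AEOL 10150 control values were lower and close together, and the difference was -0.74 (limma unadjusted p = 0.0636).

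Cell death and p53 targets had a median of 0.15 over 24 and growth factors and neuropeptides 0.05 over 28 (-0.01 with quantile normalization). Thalamic and hypothalamic genes had 0.09 over 15, with Avp, vasopressin, at -1.56, and cortical and hippocampal genes 0.01 over 13 (-0.02 with quantile normalization). Cd79b, a B cell receptor subunit, had 9.95, 11.26 and 10.35 in AEOL 10150 control pools and 9.53, 8.48 and 6.77 in Control pools, a difference of 2.26 (limma unadjusted p = 0.0561). The T cell genes Cd3e, Cd3g and Cd8a were at the floor and Cd3d had -0.34. Of 3 sex-linked transcripts tested, Eif2s3y had 0.28, Kdm5d -0.63 and Uty -0.35, and Xist was at the floor on all 6 arrays.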
